A study of Saccharomyces cerevisiae BY4741 with 24 samples.

Results

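The 7 genes described here make acetyl-CoA from acetate or pass acetyl groups between cell compartments as acetylcarnitine in the budding yeast Saccharomyces cerevisiae. They were chosen by gene symbol (ACS1, ACS2, ACH1, CAT2, YAT1, YAT2 and CRC1) from the 5449 genes of this yeast on the array, and each was measured by 1 probe set, a group of short probes against its transcript. The study asked which transcripts change while cells grown with less glucose, a form of caloric restriction, gain a longer lifespan. Cultures of the laboratory strain BY4741 were started at an optical density (OD600) of 0.2 in the rich medium YPD and shaken at 30 °C. All 8 groups share that strain and medium. They are 2% glucose at 12, 18, 24 and 48 h after inoculation, which served as the control, and 0.5% glucose at the same 4 times. Each group has 3 biological replicates, each on an array of its own, which makes 24 Affymetrix Yeast Genome 2.0 arrays. The labels give neither the growth phase nor the glucose left at harvest.

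Acetyl-CoA carries the acetyl units that feed the citrate cycle, fatty acid and sterol synthesis and protein acetylation. Yeast mitochondria, peroxisomes and the cytosol each hold a pool of it, and the molecule does not cross their membranes freely. Acetyl-CoA synthetase joins acetate to coenzyme A, while carnitine acetyltransferases move the acetyl group onto carnitine so that a carrier can bring it into mitochondria, a route known mainly from growth on acetate, ethanol or fatty acids after glucose has run out.

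Levels are the log2 values deposited by the authors, so a difference of 1 is a 2-fold change, and differences between groups are given ± SE, from 3 arrays against 3. None of the 7 probe sets is of a kind that can be shared between genes. Each level was averaged over a culture, and fewer cells with a transcript cannot be told apart from less of it per cell. All 7 genes lay above the background of 2.29 in all 8 groups, where the background is the 95th percentile of 1746 probe sets for the fission yeast Schizosaccharomyces pombe. Of the strain's a-type mating markers, MFA1, MFA2 and STE2 were above background in 8 of 8 groups. Of the alpha-type markers, SAG1 and STE3 were above background in all 8 groups, at 6.17 to 7.03 and 3.42 to 5.93, MF(ALPHA)1 in 6 and MF(ALPHA)2 in 3. Among the genes deleted in BY4741, URA3 and MET17 were below background in every group and LEU2 was above it in 1, while HIS3, which is only partly deleted in this strain, lay at 4.72 to 5.36. The 3 arrays of 0.5% glucose at 48 h stood apart from the other 21. On the first principal component, which held 58.2% of the variance, they lay at 61.9 to 64.7 and the others at -22.0 to 13.2. In that group the 3′ probe set of ACT1, the actin gene, exceeded its 5′ probe set by 1.48 ± 0.05 (SD, n = 3), against group means of 0.62 to 0.82 elsewhere. The same measure of RNA integrity was highest in that group for WBP1 (1.92) and SPT15 (1.84) as well, but not for EAF5 or SRB4, and for RIP1 it was 0.24, as in 2% glucose at 24 h. The part of RNA quality in the 48 h results below was not tested.

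**Figure D1:**
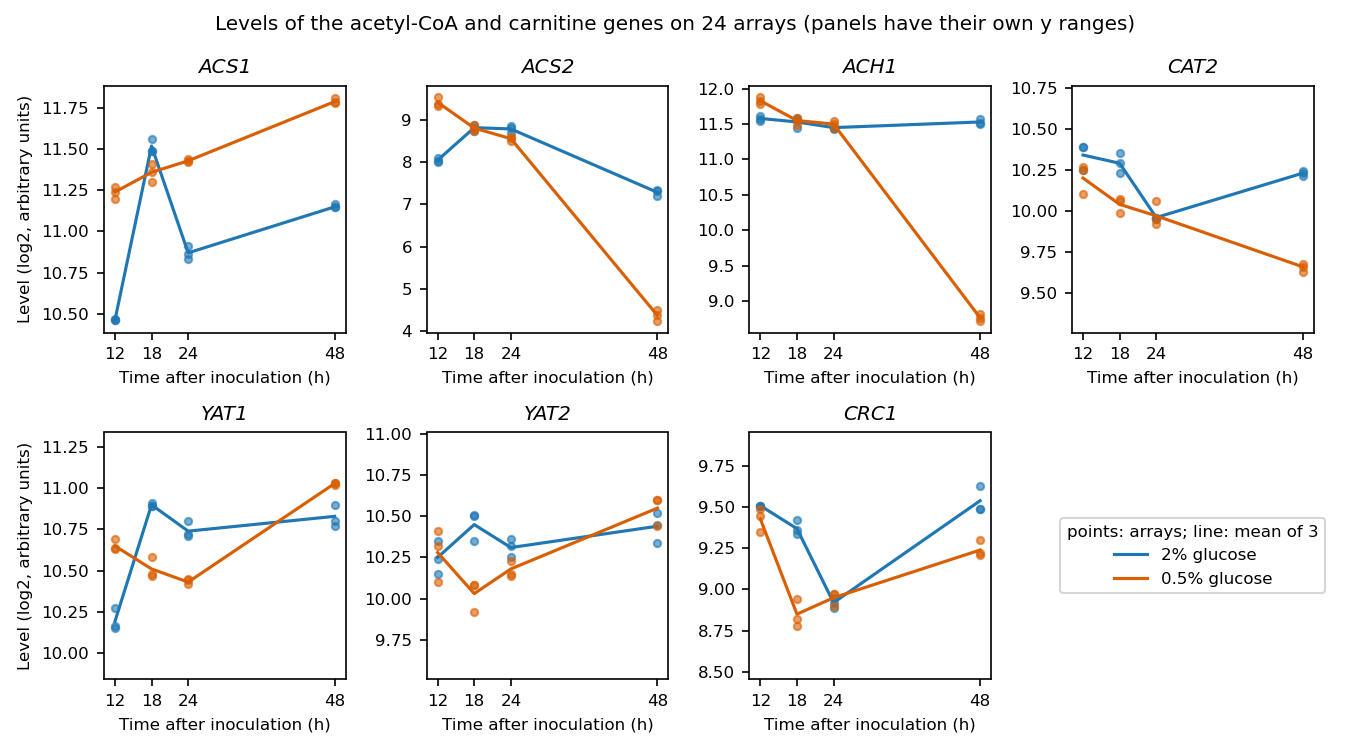
Level of each of the 7 genes (vertical axis, log2, arbitrary units) against time after inoculation (horizontal axis, h) in 2% (blue) and 0.5% glucose (orange). Points are the 24 arrays and lines join the means of 3. ACS2 and ACH1 drop at 48 h in 0.5% glucose, to means of 4.37 and 8.76, and the other 5 genes span at most 1.33 between their lowest and highest group means.

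ACS1 encodes the acetyl-CoA synthetase known to be repressed by glucose. It was higher in 0.5% than in 2% glucose at 12, 24 and 48 h. At 12 h the 0.5% cultures read 11.20, 11.24 and 11.27 and the 2% cultures 10.47, 10.46 and 10.46. The difference was 0.78 ± 0.04 (SE), or 1.72-fold, with an adjusted p of 4.33e-14 from limma, a linear model over all 24 arrays with Benjamini-Hochberg adjustment over 5449 genes. At 18 h the 0.5% cultures read 11.41, 11.30 and 11.36, below the 11.56, 11.49 and 11.49 of the 2% cultures. That difference of -0.16 ± 0.04 (limma adjusted p = 0.00132) was the only one of the 4 in that direction, and on a scale set by the group means of 12 poly-A spike-in probe sets, called the spike-in scale here, it was 0.0016, with an adjusted p of 0.973. At 24 h the 0.5% cultures read 11.44, 11.43 and 11.42 against 10.91, 10.83 and 10.86, a difference of 0.56 ± 0.04 (limma adjusted p = 3.01e-11). At 48 h the levels were 11.78, 11.81 and 11.79 against 11.15, 11.15 and 11.17, a difference of 0.64 ± 0.04 (limma adjusted p = 4.89e-13). The spike-in scale put the 12, 24 and 48 h differences at 1.18, 0.83 and 0.15, all called, but with spike-ins taken array by array the 48 h call was lost (0.15, adjusted p = 0.576). The arrays of both glucose levels did not overlap at any of the 4 times.

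The course of ACS1 over time differed between the glucose levels. In 2% glucose it rose by 1.06 ± 0.04 from 12 to 18 h, fell by 0.65 to 24 h, the 100th largest decrease among 5449 genes, and rose by 0.28 to 48 h. In 0.5% glucose its group means went from 11.24 through 11.36 and 11.43 to 11.79. Of those steps, the rise of 0.12 from 12 to 18 h and that of 0.36 from 24 to 48 h passed the test, and on the spike-in scale both were turned, to -0.07 and -0.27. The rise of 0.12 also missed the threshold without replicate 1 of 0.5% glucose at 18 h, where it was 0.09 with a limma adjusted p of 0.0606. Ordered by group mean, ACS1 was lowest in 2% glucose at 12 h (10.46) and highest in 0.5% glucose at 48 h (11.79), and the arrays of each pair of neighbours in that order were apart.

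ACS2 encodes the other acetyl-CoA synthetase, the essential isoform on glucose, which is known to supply acetyl-CoA in the nucleus and cytosol. It had a glucose difference of one sign at 12 h and of the opposite sign at 48 h. At 12 h the 0.5% cultures read 9.53, 9.32 and 9.38 against 8.09, 8.01 and 8.0 in 2% glucose. It was thus 2.59-fold higher in 0.5% glucose, a difference of 1.37 ± 0.07 (limma adjusted p = 4.2e-14) with every array of one group above every array of the other. At 18 h the levels were 8.79, 8.74 and 8.87 in 0.5% and 8.81, 8.74 and 8.87 in 2% glucose. The arrays overlapped and the difference was -0.01 ± 0.07 (limma adjusted p = 0.948). At 24 h the 0.5% cultures, at 8.59, 8.56 and 8.50, lay below the 2% cultures, at 8.86, 8.80 and 8.69. This difference of -0.23 ± 0.07 passed the test (limma adjusted p = 0.00377), but was 0.03 on the spike-in scale.

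At 48 h ACS2 read 4.23, 4.39 and 4.49 in 0.5% glucose and 7.33, 7.19 and 7.32 in 2% glucose. The 0.5% cultures were 7.52-fold lower, a difference of -2.91 ± 0.07 that was the 26th lowest of all 5449 genes (limma adjusted p = 2.93e-20). ACS2 fell between 24 and 48 h in both media. In 2% glucose the decrease was 2.83-fold and ranked 20th. In 0.5% glucose ACS2 fell by 4.18, or 18.1-fold, and only 3 genes decreased more. The 48 h glucose difference was -3.40 on the spike-in scale. Over the 8 groups the means of ACS2 spanned 5.04, and their SD exceeded that of 99.7% of genes. Without 0.5% glucose at 48 h the span was 2.13 and the share 95.2%.

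The pair of synthetases was also followed as a ratio within each array, which a shift of all log2 values of an array by the same amount cannot change. A normalization whose shift depends on the level can change it, and the part of such a step in the deposited values was not tested. The probe sets differ, so only differences of the ratio between arrays have a meaning. At 12 h ACS1 minus ACS2 was 1.67 to 1.92 in 0.5% glucose and 2.38 to 2.45 in 2% glucose, and at 18 h it was 2.49 to 2.62 against 2.63 to 2.76. The ratio was thus lower in 0.5% glucose at both times, by mean differences of -0.60 and -0.15. At 24 h it was 2.86 to 2.92 against 2.03 to 2.17, and at 48 h 7.31 to 7.54 against 3.82 to 3.95. Here the ratio was higher in 0.5% glucose, by 0.80 and 3.55. The groups did not overlap at any time, and the two-sided exact permutation p was 0.1 at each of the 4 times, the smallest that 3 arrays against 3 can give. In 2% glucose too, all 3 ratios at 48 h lay above those of the other 3 times.

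**Figure D2:**
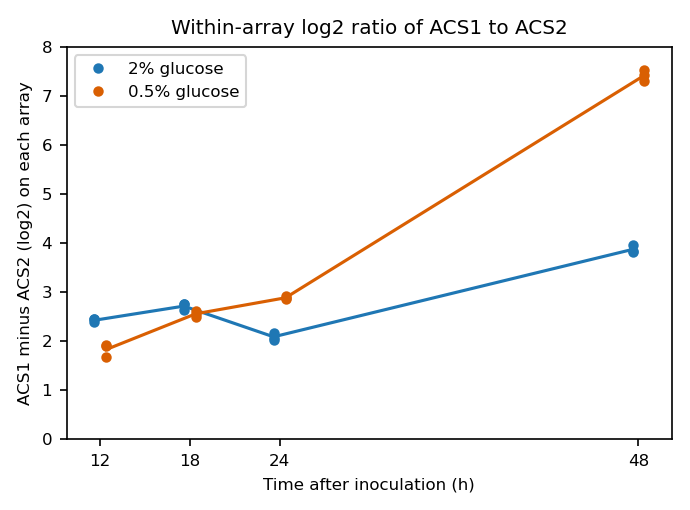
Level of ACS1 minus level of ACS2 on the same array (vertical axis, log2) against time after inoculation (horizontal axis, h), with points for arrays and lines through the means of 3. The 0.5% glucose arrays (orange) lie below the 2% arrays (blue) at 12 and 18 h and above them at 24 and 48 h, where they reach 7.31 to 7.54.

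ACH1 encodes a mitochondrial enzyme that transfers coenzyme A between acyl groups and acetate. It changed little in 7 of the 8 groups and was much lower in the remaining one. Its group means in 2% glucose were 11.58, 11.53, 11.45 and 11.53 at the 4 times, and none of the 3 steps between them passed the test. In 0.5% glucose at 12 h it read 11.83, 11.78 and 11.88 against 11.57, 11.54 and 11.61 in 2% glucose, a difference of 0.25 ± 0.04 (limma adjusted p = 2.51e-05) with the arrays apart, and of 0.66 on the spike-in scale. At 18 and 24 h the arrays of both media overlapped and the differences were 0.01 and 0.05, with limma adjusted p of 0.825 and 0.294. The spike-in scale gave 0.17 and 0.32 there, both called (adjusted p = 0.00188 and 1.17e-06). In the order of ACH1 group means, those between 11.45 and 11.58 each overlapped with the next, though the arrays of 2% glucose at 24 h lay below those of 2% glucose at 48 h and at 12 h.

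At 48 h ACH1 read 8.76, 8.71 and 8.81 in 0.5% glucose and 11.50, 11.52 and 11.57 in 2% glucose. It was 6.85-fold lower in 0.5% glucose, a difference of -2.78 ± 0.04 (limma adjusted p = 1.07e-22), the 30th lowest of all genes. From 24 to 48 h ACH1 fell by 2.74 in 0.5% glucose, and in 2% glucose its difference was 0.09 with a limma adjusted p of 0.092. The test of the difference between those glucose effects gave -2.83 ± 0.06 (limma adjusted p = 2.48e-19), the 19th lowest. The 48 h difference was -3.27 on the spike-in scale. The level of ACT1, read by its 3′ probe set, was 9.94 in the same group and 11.35 to 11.65 in the others. Without that group the SD of the ACH1 group means exceeded that of only 8.6% of genes, against 96.6% with it.

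The carnitine genes differed by smaller amounts, and none of their glucose differences reached 2-fold, except that of CAT2 at 48 h on the spike-in scale (-1.06). CAT2 encodes the carnitine acetyltransferase of mitochondria and peroxisomes. It was lower in 0.5% glucose at 18 h, by -0.25 ± 0.05 (-0.09 on the spike-in scale, adjusted p = 0.115), and at 48 h, where the cultures read 9.63, 9.66 and 9.68 against 10.24, 10.23 and 10.21. The 48 h difference was -0.57 ± 0.05 (limma adjusted p = 7.64e-10) with the arrays apart. At 12 h its difference was -0.14 (limma adjusted p = 0.0172), but the arrays overlapped and on the spike-in scale the sign turned, to 0.26. The 12 h call was also lost without replicate 2 or 3 of 2% glucose or replicate 1 of 0.5% glucose, at limma adjusted p of 0.0728, 0.0721 and 0.137, with differences of -0.12, -0.12 and -0.09. At 24 h the arrays overlapped, at a difference of 0.02 (limma adjusted p = 0.782), which was 0.28 and called on the spike-in scale (adjusted p = 3.52e-05).

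YAT1 encodes the carnitine acetyltransferase associated with the outer mitochondrial membrane. At 12 h it read 10.63, 10.64 and 10.69 in 0.5% glucose against 10.27, 10.16 and 10.15 in 2% glucose, and it was higher in the former by 0.46 ± 0.04 (limma adjusted p = 4.52e-09), and by 0.86 on the spike-in scale. At 18 h it was lower instead, at 10.58, 10.47 and 10.48 against 10.91, 10.89 and 10.89, a difference of -0.39 ± 0.04 (limma adjusted p = 2.69e-07), or -0.23 on the spike-in scale. In 2% glucose YAT1 had risen by 0.71 between these times, while in 0.5% glucose it had fallen by 0.15. At 24 h the difference was -0.30, and -0.04 on the spike-in scale. At 48 h it was 0.20, with levels of 11.02, 11.03 and 11.03 against 10.77, 10.80 and 10.90, and on the spike-in scale -0.29. The arrays of both media were apart at all 4 times.

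YAT2 encodes the cytosolic carnitine acetyltransferase. Of the 4 times it passed the test for a glucose difference at 18 h alone on the deposited scale, where 0.5% glucose read 9.92, 10.08 and 10.08 and 2% glucose 10.35, 10.50 and 10.51. That difference was -0.43 ± 0.07 (limma adjusted p = 7.64e-05), or -0.27 on the spike-in scale. At 12, 24 and 48 h the differences were 0.03, -0.13 and 0.11, with limma adjusted p of 0.725, 0.132 and 0.173. The spike-in scale called YAT2 at 12 h (0.43, adjusted p = 1.92e-05) and at 48 h (-0.38, 7.72e-05), and a fit to the arrays of 24 h alone called it there (-0.13, 0.0359). At 24 h the spike-in scale gave 0.14, of the opposite sign and not called (limma adjusted p = 0.105). Its group means spanned 0.52, and apart from the lowest, 0.5% glucose at 18 h (10.03), each overlapped its neighbour in the order.

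CRC1 encodes the carrier of acetylcarnitine in the inner mitochondrial membrane. At 18 h it read 8.82, 8.94 and 8.78 in 0.5% glucose and 9.42, 9.36 and 9.34 in 2% glucose. This difference of -0.53 ± 0.05 (limma adjusted p = 3.06e-08) was the 173rd lowest among all genes and the lowest of the 7 at that time. At 24 h the arrays overlapped, at 8.90 to 8.97 and 8.89 to 8.95, and the spike-in scale gave a called difference of 0.29 (adjusted p = 2.08e-05). At 48 h it read 9.30, 9.21 and 9.22 against 9.49, 9.49 and 9.63, a difference of -0.29 ± 0.05 (limma adjusted p = 1.63e-05), and of -0.78 on the spike-in scale. In 2% glucose CRC1 fell by 0.46 from 18 to 24 h and rose by 0.62 from 24 to 48 h. In 0.5% glucose it fell by 0.58 from 12 to 18 h. At 12 h its difference of -0.08 did not pass the test (limma adjusted p = 0.145), and it was 0.32 and called on the spike-in scale (adjusted p = 6.09e-06).

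Ratios within arrays were also compared for the carnitine genes, over 8 comparisons. CAT2 minus YAT1 was lower in 0.5% glucose at 12 h by -0.60 and at 48 h by -0.77, and higher at 24 h by 0.32, each with the arrays apart and a two-sided exact permutation p of 0.1. At 18 h it differed by 0.14, with overlapping arrays and an exact permutation p of 0.2. YAT1 minus YAT2 differed by 0.43 at 12 h and -0.17 at 24 h, each with an exact permutation p of 0.1. At 18 and 48 h it differed by 0.03 and 0.09, with overlapping arrays and exact permutation p of 0.6 and 0.3. Over these 8 comparisons and the 4 of the synthetases, no adjusted value can be below 0.1.

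**Figure D3:**
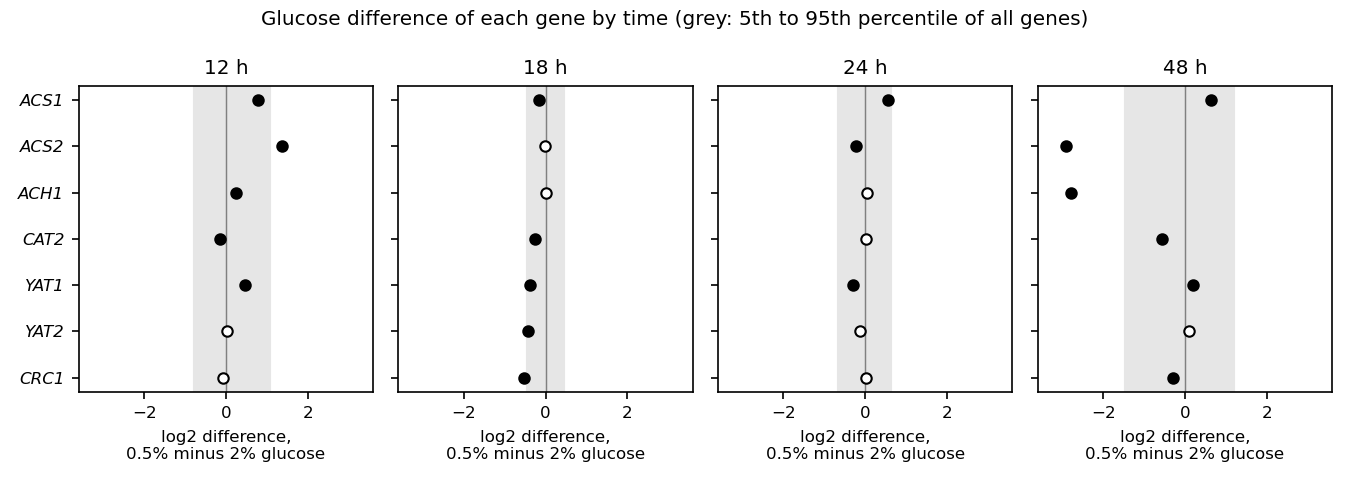
Glucose difference (horizontal axis, log2, 0.5% minus 2%) of each of the 7 genes at 12, 18, 24 and 48 h, with error bars of 1 SE, which are mostly hidden by the symbols. Filled symbols passed the limma test, and grey spans the 5th to 95th percentile of all 5449 genes. ACS2 lies beyond the grey range at 12 h (1.37), CRC1 at 18 h (-0.53), and ACS2 and ACH1 at 48 h (-2.91 and -2.78).

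Counted over the 7 genes, calls were set beside the share of all 5449 genes called the same way (limma, adjusted p under 0.05). At 12 h 4 genes were higher in 0.5% glucose and 1 lower, where 32.2% of all genes were higher and 41.2% lower. At 18 h none was higher and 5 were lower, against 25.5% and 24.8%. At 24 h 1 was higher and 2 lower, against 31.6% and 31.4%, and at 48 h 2 were higher and 4 lower, against 46% and 37.8%. The median difference of the 7 was 0.25, -0.25, 0.02 and -0.29 at the 4 times, and that of all genes -0.05, 0.00, 0.00 and 0.08. The share of the 7 that was lower at 18 h was above that of all genes, a difference that was not tested. Leaving out any single array kept that count at 5, but the spike-in scale did not.

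These shares depend on the scale. The 12 probe sets for poly-A spike-in controls read lower in 0.5% glucose by -0.40 ± 0.11 (SE) at 12 h, -0.16 ± 0.26 at 18 h and -0.27 ± 0.23 at 24 h and higher by 0.49 ± 0.16 at 48 h. Their group means were 3.88 to 4.85, below those of the 7 genes except ACS2 in 0.5% glucose at 48 h (4.37). Whether their shifts hold for brighter genes was not tested. When scaled by their group means, the median gene stood at 0.35, 0.16, 0.27 and -0.41, and the shares of higher and lower genes were 69.3% and 11.6% at 12 h, 51.4% and 10.6% at 18 h, 64.2% and 12.4% at 24 h, and 19.4% and 65.4% at 48 h. Of the 7 genes, 7 were then higher at 12 h, 2 were higher (ACS2 and ACH1) and 3 lower at 18 h, 4 were higher and none lower at 24 h, and 1 was higher and 6 lower at 48 h. ACS1, ACS2, ACH1 and YAT1 at 12 h, YAT1, YAT2 and CRC1 at 18 h, ACS1 at 24 h and ACS1, ACS2, ACH1, CAT2 and CRC1 at 48 h kept their direction and their call on that scale. With the spike-ins of each array as the scale, none of the 7 was called at 18 h, and ACS1 was not called at 48 h.

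Between successive times in 2% glucose, 4 of the 7 rose and 1 fell from 12 to 18 h, where 30.5% of all genes rose and 37.9% fell. The risers were ACS1, ACS2 (0.77), YAT1 and YAT2 (0.21). The count of 5 was 3 without replicate 2 or 3 of 2% glucose at 18 h, since YAT2 (limma adjusted p = 0.0684 and 0.074) and CRC1 (0.0585 and 0.0692) were then not called. From 18 to 24 h none rose and 4 fell, ACS1, CAT2, YAT1 and CRC1, against 25.2% and 24.5% of all genes. From 24 to 48 h ACS1, CAT2 (0.27) and CRC1 rose and ACS2 fell, against 31.5% and 30.4%. In 0.5% glucose ACS1 rose and the other 6 fell from 12 to 18 h, against 30% and 30.2%. The decreases ran from -0.15 for YAT1 to -0.61 for ACS2. From 18 to 24 h ACS2 fell by 0.25 and no other member was called, against 24.6% risers and 24.1% fallers. The count of 1 was 2 without replicate 1 or replicate 2 of 0.5% glucose at 18 h, when ACS1 (0.10) or CRC1 (0.15) also rose. From 24 to 48 h ACS1, YAT1 (0.59), YAT2 (0.37) and CRC1 (0.30) rose and ACS2, ACH1 and CAT2 (-0.32) fell, against 45.8% and 39.4%, but on the spike-in scale the 4 risers stood at -0.27, -0.04, -0.26 and -0.33.

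On the spike-in scale the numbers of all genes that rose and fell in 2% glucose were 1948 and 1760, 328 and 3690, and 2579 and 1062 for the 3 steps. In 0.5% glucose they were 654 and 2981, 515 and 2620, and 985 and 3863.

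The change of the glucose effect itself was tested between successive times. From 12 to 18 h the effect decreased for 6 of the 7 genes and increased for none, where it increased for 32.5% of all genes and decreased for 24.5%. The shifts were -1.38 ± 0.09 for ACS2, -0.94 ± 0.05 for ACS1, -0.85 ± 0.06 for YAT1, -0.46 for YAT2, -0.45 for CRC1 and -0.24 for ACH1. From 18 to 24 h it increased for ACS1 (0.72 ± 0.05, the 66th highest of all genes), CRC1 (0.56), CAT2 (0.27) and YAT2 (0.29) and decreased for none, against 13.7% and 14.1%. From 24 to 48 h it increased for YAT1 (0.51) and YAT2 (0.24) and decreased for ACS2 (-2.68), ACH1, CAT2 (-0.59) and CRC1 (-0.32), against 39.5% and 35.2%. The YAT2 calls from 18 to 24 h and from 24 to 48 h were lost when 8 and 9 of the 24 arrays were left out in turn. The last shifts of YAT1 and YAT2 turned on the spike-in scale, to -0.25 and -0.51. The numbers of all genes with an increased and a decreased effect were then 688 and 2545, 1458 and 443, and 433 and 4247. An F test of whether the glucose effect was equal at the 4 times passed for 7 of 7 genes and for 91.7% of all genes. It also passed for all 7 with the 48 h arrays left out, at limma adjusted p from 1.98e-10 for ACS2 to 0.0171 for CAT2. With the spike-ins of each array as the scale, YAT2 missed the threshold (limma F test, adjusted p = 0.0522).

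Genes with the most similar profiles were sought by Pearson correlation of the 8 group means, among 1593 genes above background whose group means had an SD of at least 0.5. The group means share arrays and normalization, and these values are a description. ACS2 was most like ERG13 (0.995), which encodes an early enzyme of sterol synthesis that uses acetyl-CoA, followed by BFR1 and GGA2 (both 0.993). These kept correlations of 0.983, 0.957 and 0.967 over the 7 groups without 0.5% glucose at 48 h. ACH1 was most like ACT1 and COX4 (both 0.992) and SDH3 (0.99), and there the values without that group were 0.629, 0.238 and 0.428. ACS1 was most like ERB1 (0.935), a ribosome assembly gene, and the ribosomal protein genes RPL12A and RPL19B. YAT1 was most like ARG1 (0.942), CAT2 like IMO32 (0.935), YAT2 like RAD53 (0.857) and CRC1 like ECM13 (0.772). A search over the 7 groups without 0.5% glucose at 48 h, among 703 genes, again gave ERB1 (0.92) for ACS1 and ARG1 (0.941) for YAT1. It gave TYS1 (0.987) for ACS2, ATX2 (0.901) for ACH1, PHM6 (0.79) for YAT2, and SPL2 for CAT2 and CRC1 (0.883 and 0.827). Among the 7 themselves, ACS2 and ACH1 correlated at 0.93 over 8 groups and 0.44 over 7, and CAT2 and CRC1 at 0.57 and 0.92.

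**Figure D4:**
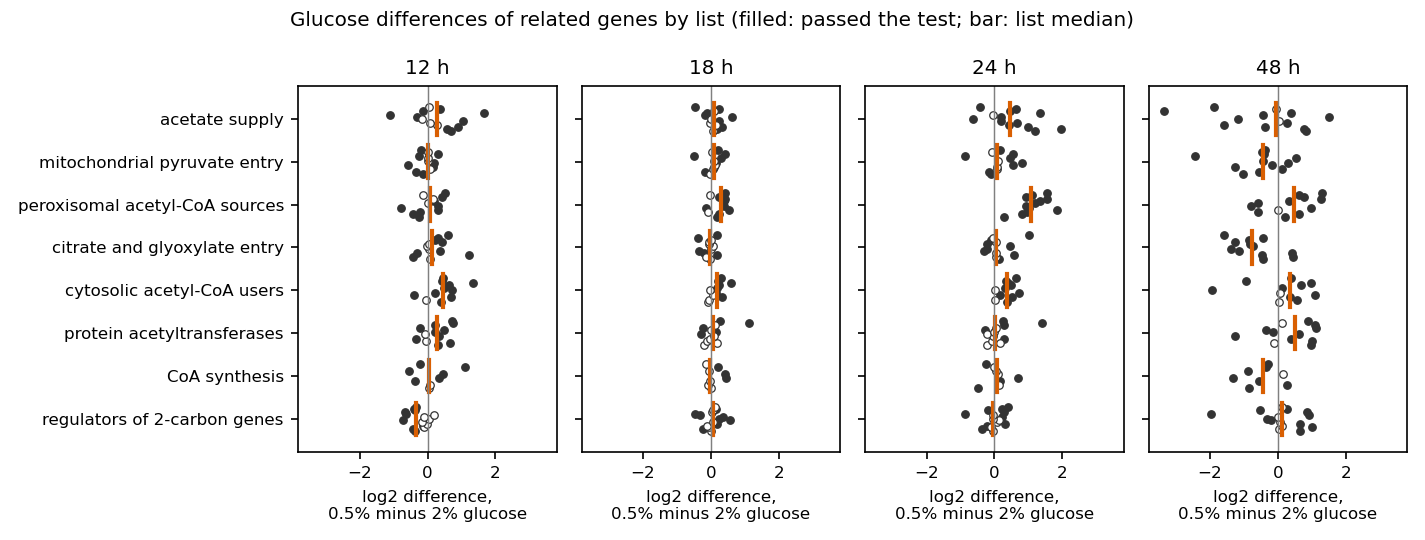
Glucose difference (horizontal axis, log2, 0.5% minus 2%) of the genes in 8 lists around acetyl-CoA at 12, 18, 24 and 48 h. Points are genes, filled where they passed the limma test, and orange bars are list medians. At 24 h all 12 peroxisomal genes are filled and to the right of 0, with a median of 1.07.

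Genes that supply or use acetyl-CoA were counted in 8 lists, whose counts stand against the shares of all genes given above: 32.2% higher and 41.2% lower at 12 h, 25.5% and 24.8% at 18 h, 31.6% and 31.4% at 24 h, and 46% and 37.8% at 48 h. Counts on the spike-in scale stand against other shares. These were 69.3% higher and 11.6% lower at 12 h, 51.4% and 10.6% at 18 h, 64.2% and 12.4% at 24 h, and 19.4% and 65.4% at 48 h. Of 13 genes for making and importing acetate, 6 were higher and 3 lower in 0.5% glucose at 12 h, 5 and 3 at 18 h, 10 and 2 at 24 h and 5 and 6 at 48 h. The spike-in scale gave 11 and 1, 8 and 1, 11 and 2, and 3 and 10. ADH2, the alcohol dehydrogenase that consumes ethanol, was higher by 1.67 at 12 h and 1.34 at 24 h, when ACS1 was also higher. ALD6, the cytosolic acetaldehyde dehydrogenase that makes acetate, was lower by -1.87 at 48 h, as was ATO2, a putative ammonium and acetate transporter, by -3.36. Others of this list, among them ADY2, ATO3 and ALD3, were higher at 48 h, by 0.84, 0.77 and 1.51. Of 12 genes for fatty acid breakdown in peroxisomes and for import into them, 5 were higher and 4 lower at 12 h, 9 and 1 at 18 h, 12 and 0 at 24 h and 8 and 3 at 48 h. POX1, the first enzyme of that breakdown, was higher by 1.85 at 24 h. The same 12 genes all fell from 18 to 24 h in 2% glucose, with a median of -0.86, a step in which ACS1, CAT2, YAT1 and CRC1 fell too. Of all genes, 24.5% fell in that step. The spike-in scale left the peroxisomal counts of 12 and 0 at 24 h and of 12 decreases in that step as they were, and gave 10 and 1 at 12 h, 9 and 0 at 18 h and 4 and 6 at 48 h. On that scale 3690 of all 5449 genes fell from 18 to 24 h in 2% glucose.

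Of 12 genes for entry into the citrate and glyoxylate cycles, 6 were higher and 2 lower at 12 h and 2 and 10 at 48 h, with 2 and 3 at 18 h and 4 and 4 at 24 h between. ICL1, the isocitrate lyase of the glyoxylate cycle, was higher by 1.22 at 12 h, and MLS1, its malate synthase, was lower by -1.26 at 48 h. Of 12 genes for pyruvate entry into mitochondria, 3 were higher and 5 lower at 12 h, 4 and 2 at 18 h, 5 and 3 at 24 h, and 3 and 9 at 48 h. MPC2, a subunit of the mitochondrial pyruvate carrier, was lower by -2.45 at 48 h. The subunits MPC1 and MPC3 were higher then, by 0.30 and 0.52, but no gene of this list was called higher on the spike-in scale. Of 11 cytosolic users of acetyl-CoA, 9 were higher and 1 lower at 12 h, 7 and 0 at 18 h, 9 and 0 at 24 h and 7 and 2 at 48 h. ERG13 and ERG10, which join acetyl units at the start of sterol synthesis, were the 2 that were lower at 48 h, by -1.94 and -0.94. Scaled by the spike-ins, the citrate and glyoxylate counts were 10 and 0, 6 and 2, 9 and 0, and 0 and 10 at the 4 times. Those of pyruvate entry were then 10 and 1 at 12, 18 and 24 h and 0 and 11 at 48 h, and those of the cytosolic users 10 and 0, 9 and 0, 11 and 0, and 3 and 6.

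Of 12 protein acetyltransferase genes and their partners, 8 were higher and 2 lower at 12 h, 3 and 2 at 18 h, 4 and 1 at 24 h, and 7 and 3 at 48 h. HAT1, a histone acetyltransferase, was higher by 1.12 at 18 h and 1.39 at 24 h. Of 8 genes of coenzyme A synthesis, 3 were higher and 3 lower at 12 h, 3 and 0 at 18 h, 2 and 2 at 24 h, and 1 and 6 at 48 h. CAB1, the pantothenate kinase that starts the pathway, was lower by -1.31 at 48 h. Of 15 regulators of genes for growth on such substrates, 0 were higher and 9 lower at 12 h, 5 and 3 at 18 h, 5 and 4 at 24 h and 6 and 4 at 48 h. CAT8, an activator known to act on ACS1, was lower by -0.66 at 12 h, when ACS1 was higher. When scaled by the spike-ins, the acetyltransferase counts were 11 and 0, 6 and 0, 9 and 0, and 5 and 5 at the 4 times, those of coenzyme A synthesis 5 and 1, 5 and 0, 6 and 0, and 0 and 8, and those of the regulators 7 and 3, 9 and 1, 10 and 1, and 5 and 10. On that scale neither MPC1 nor MPC3 was still called higher at 48 h. None of the other genes named from the 8 lists turned its direction at the time given.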

How the data were processed

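Total RNA from 24 cultures in 8 groups was labelled with biotin and hybridized to 1 array each, per the labels' protocols. The authors deposited 1 log2 value per probe set and array (0.60 to 12.57). The values of all arrays had the same distribution (largest difference between sorted columns 0.0095), as quantile normalization leaves them, although no source used here states that step. The base of the logarithm was taken as 2. The submitters' processing notes name Partek without a role, and neither background correction nor probe summarization is given in the sources used here. Of 10928 probe sets, 5498 named 1 Saccharomyces cerevisiae gene and gave 5449 genes, with the brightest probe set kept for 47 genes with several.

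Group means were fitted in limma 3.58.1 (lmFit, eBayes; R 4.3.3), with Benjamini-Hochberg adjustment over all genes within each comparison, and a gene was called at an adjusted p under 0.05. The fit was tested on simulated data. Figures were drawn with matplotlib 3.10.9. The 7 genes and all lists were chosen with earlier results of these data known. All 7 were named in every comparison, with the 3 most similar genes each and, from the other lists, examples among the 2 called genes with the largest moderated statistic per glucose comparison. Some further list genes were named at 48 h because they differed in the other direction.

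Same-numbered replicates were checked as pairs by the correlation of their deviations from the group means. All 3 exceeded 0.1 for the glucose comparisons at 12 h (0.109 to 0.212), at 18 h (0.229 to 0.364) and at 24 h (0.117 to 0.368), and for the step from 12 to 18 h in 2% glucose (0.148 to 0.456), but not at 48 h (0.072 to 0.156) or in the other steps, and the labels do not say that a number marks a shared batch. The fit with the number as a block was an alternative. The other alternatives were quantile normalization over the tested genes, median centring, 12 poly-A spike-in probe sets as the scale (by group means, whose p-values ignore how the spike-ins vary, or by array), no dim genes, robust moderation with a variance trend, weighted arrays, fits to the compared arrays alone, averaged probe sets, and each array left out in turn. Leaving out the 48 h arrays, and the similarity search without 0.5% glucose at 48 h, were added after the data had been seen. The number of arrays limits the precision. The median SE of a glucose difference was 0.064.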

Additional observations from a re-analysis of the deposited data

Results flagged for a closer look

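The glucose effect differed between the 4 times for each of the 7 genes by the limma F test. The adjusted p was 2.97e-20 for ACH1, 6.2e-19 for ACS2, 1.21e-12 for ACS1, 2.9e-11 for YAT1, 1.06e-06 for CAT2, 1.15e-06 for CRC1 and 0.000354 for YAT2. ACH1 went from 0.25 at 12 h to -2.78 at 48 h (log2, 0.5% minus 2% glucose) and ACS2 from 1.37 to -2.91, while ACS1 was at 0.78, -0.16, 0.56 and 0.64 in the order of the times. Without the 48 h arrays the adjusted p was 0.00641 for ACH1, 1.98e-10 for ACS2, 1.18e-09 for ACS1, 6.64e-09 for YAT1, 0.0171 for CAT2, 4.66e-06 for CRC1 and 0.00364 for YAT2. The same F test passed for 91.7% of all genes. With the spike-ins of each array as the scale, YAT2 was not called by it (limma F test, adjusted p = 0.0522).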

How the results depend on the processing

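For the 7 genes, each of 98 values in the 14 comparisons kept its side of the threshold in several settings, and the called differences kept their direction. These settings were the replicate block, quantile normalization over the tested genes, median centring, dim genes left out, the mean of the probe sets, and the variance trend with robust moderation. Directions were compared only for values called in either setting, and the F test gives none. With the replicate block 4074, 2875, 3546 and 4601 genes were called for glucose in the order of the times, and it changed no call among the 7. With the 48 h arrays left out, 69 of 70 values kept their side of the threshold, and the change of the YAT2 effect from 18 to 24 h did not (limma adjusted p = 0.0503). Array weights called 7 members rather than 4 from 24 to 48 h in 2% glucose, and 2 rather than 1 from 18 to 24 h in 0.5% glucose. Of all 5449 genes they called 1917 higher and 1849 lower in the former step, and 1588 and 1502 in the latter. With only the arrays compared, CAT2 at 12 h (adjusted p = 0.0967) and ACS1 from 12 to 18 h in 0.5% glucose (0.0762) lost their calls, while YAT2 at 24 h (0.0359) and the change of the ACS2 effect from 18 to 24 h (0.0427) gained one. With array weights the change of the YAT2 effect from 24 to 48 h was lost (0.15, adjusted p = 0.102), and 8 of the 98 values gained a call.

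The spike-in scale turned values by its construction, since it shifts all genes of a group together. By group means it turned 15 of the 98 values, and among the others it gave a call to 16 and removed 3. Values called on neither scale were not counted as turned, among them YAT2 at 24 h (-0.13, and 0.14 on the spike-in scale). Of those turned, ACS1 at 18 h and ACS2 at 24 h also lost their call. So did ACS1 from 12 to 18 h and YAT1 from 24 to 48 h in 0.5% glucose. By array it turned 11, all of which lost their call, and removed the call of another 25. At 12 h CAT2 became 0.26 and CRC1 0.32. At 18 h ACS1 became 0.0016 and ACS2 0.15, and at 24 h ACS2 became 0.03. At 48 h YAT1 became -0.29 and YAT2 -0.38. In 0.5% glucose ACS1 became -0.07 from 12 to 18 h, and from 24 to 48 h ACS1 became -0.27, YAT1 -0.04, YAT2 -0.26 and CRC1 -0.33. The change of the glucose effect from 24 to 48 h became -0.68 for ACS1, -0.25 for YAT1 and -0.51 for YAT2. With group means the members called were 7 from 18 to 24 h and 7 from 24 to 48 h in 2% glucose and 4 from 18 to 24 h in 0.5% glucose. Of all 5449 genes, 328 rose and 3690 fell, 2579 rose and 1062 fell, and 515 rose and 2620 fell in these steps. By array, whose spike-ins add their own spread, the genes called fell to 2161, 246, 1215 and 3009 at 12, 18, 24 and 48 h, to 1131, 504 and 636 for the steps in 2% glucose, to 798 and 289 for the first steps in 0.5% glucose, to 612 and 36 for the first changes of the glucose effect, and to 3296 for the F test. Members called were then 0 at 18 h and 1 at 24 h, 3, 2 and 2 for the steps in 2% glucose, 2, 0 and 3 for those in 0.5% glucose, and 3 and 0 for the first changes of the effect. In the last step in 0.5% glucose 565 of all genes rose and 3027 fell by array.

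With each array left out in turn, members called ranged from 3 to 5 from 12 to 18 h in 2% glucose and from 1 to 2 from 18 to 24 h in 0.5% glucose. The numbers of all genes called ranged from 3503 to 3753 and from 2271 to 2850 in these steps. The YAT1 minus YAT2 difference at 18 h ranged from -0.05 to 0.09 and turned negative without replicate 1 of 0.5% glucose at 18 h. The change of the YAT2 effect from 18 to 24 h missed the threshold without replicate 2 or 3 of 2% glucose at 18 h (adjusted p = 0.0924 and 0.0945) or at 24 h (0.0984 and 0.0587), without replicate 1 of 0.5% glucose at 18 h (0.103), and without replicate 1, 2 or 3 of it at 24 h (0.0553, 0.0545 and 0.0927). Its change from 24 to 48 h did so without replicate 2 of 2% glucose at 12 h (0.05), replicate 1 or 3 of it at 24 h (0.0919 and 0.0709), replicate 1 or 2 of it at 48 h (0.0585 and 0.119), replicate 1 or 2 of 0.5% glucose at 24 h (0.0772 and 0.0834), or replicate 1 or 3 of that at 48 h (0.0944 and 0.0963). The YAT2 steps from 12 to 18 h were also lost without replicate 1 of 2% glucose at 12 h (0.093) and replicate 3 of 0.5% glucose at 12 h (0.0549). The causes of these changes were not tested. All 7 genes were above background in every group, and the precision is limited by 3 arrays a group.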
